A study of Mus musculus with 6 samples.

Results

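The 10 genes described here encode the chain of adaptors and kinases that Toll-like receptors and IL-1 receptors share inside the cell. They are the adaptors Myd88, Ticam1 and Ticam2, the IRAK kinase family (Irak1, Irak2, Irak3, Irak4), the ubiquitin ligase Traf6, and the kinases Map3k8 and Ripk2. They were chosen by name, and all 10 of 10 were found among the 54838 genes of the count tables. The RNA came from neutrophils sorted from the corneas of mice that had been infected with the Pseudomonas aeruginosa strain PAO1 for 24 h. One group was Il1a-/- (knockout, 3 libraries), lacking the gene of the cytokine IL-1 alpha, and the other was wild type (WT, 3 libraries). Both groups were infected, and uninfected neutrophils were not analysed here. The labels number the biological replicates but give no strain, age or sex, no cell type for the deletion, and no statement on whether corneas were pooled. A p-value here therefore sets the difference between the groups against the scatter of these libraries only, and that scatter may be partly technical.

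When a Toll-like receptor binds a bacterial product, or an IL-1 receptor binds IL-1 alpha or IL-1 beta, MyD88 is recruited and assembles with IRAK4 and then IRAK1 or IRAK2. That assembly activates TRAF6, whose ubiquitin chains switch on the NF-kB and MAP kinase pathways. TLR3, and TLR4 once it has been taken up into endosomes, use TRIF (the product of Ticam1) instead, with TRAM (the product of Ticam2) as the bridge to TLR4, and this arm leads to interferon genes. In neutrophils the same chain drives the release of chemokines and cytokines at infected sites. The design asks how loss of IL-1 alpha changes neutrophil gene expression during this infection, and the question taken up here is whether the genes of that signalling chain differ in level.

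Library totals lay between 22855676 and 33626008 gene counts. Il1a itself was at 2.89, 5.37 and 5.15 CPM (counts scaled to library size, with TMM factors) in knockout libraries, against 5116, 6195 and 8776 CPM in WT libraries, so each library matched its label. The summed level of 12 neutrophil marker genes was 34648 to 38404 CPM in knockout libraries and 36139 to 41637 CPM in WT libraries, led by S100a9 and S100a8. Among markers of other cells, the summed level of 17 monocyte and macrophage genes was 366 to 398 CPM in knockout libraries and 304 to 311 CPM in WT libraries, without overlap. Of its 14 tested genes 0 were called (edgeR, adjusted p under 0.05), where 0.101% of all tested genes were called. An unadjusted edgeR p under 0.05 was found for 5.99% of all tested genes. Within the list it was found for C1qa, C1qb, C1qc, Mrc1, Ccr2, Pf4, F13a1 and Ms4a7, all higher in knockout, and for Lyve1, which was lower. The median log2 fold change of those 14 genes was 1.67. The most abundant, Csf1r and Adgre1, averaged 206 and 79.4 CPM in knockout and 178 and 68.3 CPM in WT. Among genes chosen here after their values were seen, C1qb averaged 4.81 CPM in knockout and 0.99 CPM in WT, C1qa 1.83 CPM in knockout and 0.48 CPM in WT, Pf4 8.78 CPM in knockout and 2.63 CPM in WT, and F13a1 16.97 CPM in knockout and 4.62 CPM in WT, each with the knockout libraries above all WT libraries. Ly6c2 (26.5 CPM in knockout, 32.6 CPM in WT) and Lyve1 (0.22 CPM in knockout, 2.08 CPM in WT) had the opposite order. Csf1r and Ms4a7 also had the knockout libraries above all WT libraries. Over all tested genes, the groups did not overlap for 11.6%. None of the 17 genes was at 0 in all libraries. The summed level of 8 dendritic cell genes was also apart, at 4.68 to 10.7 CPM in knockout libraries and 3.85 to 4.34 CPM in WT libraries. Of its 5 tested genes 0 were called (0.101% of all tested genes), and their median log2 fold change was -0.34. The separation of the sum rested on Ccr7 (5.18 CPM in knockout, 1.06 CPM in WT, ranges apart), the most abundant of the list. Clec9a (1.32 CPM in knockout, 0.71 CPM in WT, ranges overlapping) also averaged higher in knockout. Zbtb46 (0.19 CPM in knockout, 0.92 CPM in WT, ranges apart), Xcr1 (0.67 CPM in knockout, 0.96 CPM in WT) and Itgae (0.35 CPM in knockout, 0.45 CPM in WT) averaged lower. Of 10 T and NK cell genes, Cd3e, Cd4, Cd8a, Ncr1 and Klrb1c were at 0 counts in every library, while Cd3d, Trac and Il7r had counts in all 6. Il7r averaged 1.61 CPM in knockout and 0.32 CPM in WT, and Trac 0.48 CPM in knockout and 0.31 CPM in WT, both with overlapping ranges. Cd3d had the opposite order, at 0.63 CPM in knockout and 1.22 CPM in WT, with ranges apart. The T and NK list summed to 0.85 to 4.28 CPM in knockout libraries and 1.77 to 2.25 CPM in WT libraries. Of 5 B cell genes, Cd79b was at 0 in every library and Ighm averaged 8.26 CPM in knockout and 8.82 CPM in WT. Corneal epithelium genes varied widely, at 25.4 to 99.7 CPM in knockout libraries and 16.8 (replicate 1) to 131 CPM (replicate 2) in WT libraries. Stromal genes summed to 12.9 to 36.7 CPM in knockout and 19.2 to 33.7 CPM in WT, endothelial genes to 32.0 to 44.4 and 38.6 to 43.2 CPM. Most of the endothelial sum was Pecam1 (37.2 CPM in knockout, 39.8 CPM in WT). Cdh5, Kdr, Tek and Emcn each averaged 1.05 CPM or less in either group. Erythroid and platelet genes summed to 3.55 to 38.9 CPM in knockout and 5.69 to 32.1 CPM in WT. Most of that sum was Ppbp (17.4 CPM in knockout, 14.0 CPM in WT). Itga2b, Gp9, Hba-a1, Hba-a2, Hbb-bs and Hbb-bt each averaged 0.47 CPM or less in either group. Mast cell, basophil and eosinophil genes summed to 10.8 to 19.4 CPM in knockout and 17.4 to 23.1 CPM in WT. Their most abundant genes were Kit (6.57 CPM in knockout, 9.53 CPM in WT) and Siglecf (6.44 CPM in knockout, 7.01 CPM in WT). The part of such cells in the values below was not tested. In RNA from sorted populations, fewer cells of a type and less RNA per cell cannot be told apart. Knockout replicate 2 was the library farthest from the rest on principal component 1 (67.3, against -32.9 to 2.1 for the other 5 libraries), and results with and without each library are given where they differ.

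The chain was expressed very unevenly and showed no detected difference between knockout and wild-type neutrophils. Irak2 and Irak3 transcripts were at 611 CPM or more in every library, whereas Ticam1 and Ticam2 stayed at 2.90 CPM or less. Of the 10 members, all of which passed the expression filter, 0 were called at an adjusted p under 0.05 (edgeR quasi-likelihood test, Benjamini-Hochberg over 11924 tested genes), where 0.101% of all tested genes were called, 0.0755% higher and 0.0252% lower in knockout. The same count was 0 at an unadjusted p under 0.05 (5.99% of all tested genes), 0 in DESeq2 and 0 in limma-voom. For 0 of the 10 members did the knockout and WT libraries fall into separate ranges, as 11.6% of all tested genes did. A background of 0.101% would leave most lists of this length without a call, so the count sets the members apart from no other genes.

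**Figure D1:**
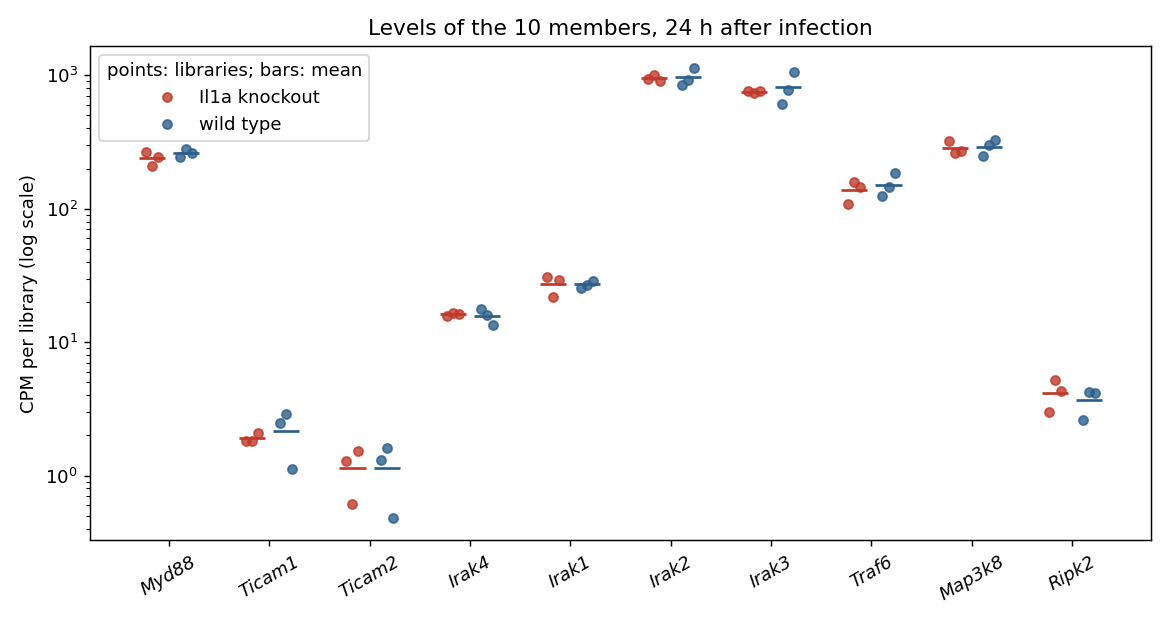
CPM of each member in every library on a log scale, knockout libraries (red) left of WT libraries (blue), with bars at the group means. The 2 groups overlap for every member, while the members span levels from 0.48 CPM (Ticam2, WT replicate 3) to 1127 CPM (Irak2, WT replicate 3).

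Myd88 (ENSMUSG00000032508, GRCm38 chromosome 9, 119335934 to 119341411, minus strand), the adaptor common to IL-1 receptors and nearly all Toll-like receptors, was the most abundant of the 3 adaptor members per length. It had 266, 209.9 and 245 CPM in knockout libraries, against 246, 279 and 262 CPM in WT libraries. Knockout replicate 2 was the lowest and WT replicate 2 the highest, and the ranges overlapped. The log2 fold change was -0.13 with a 95% interval from -0.40 to 0.14 (edgeR, adjusted p = 0.95). Myd88 was the only member whose fitted change kept 1 sign in all 15 alternatives run, from -0.22 to -0.05, and its adjusted p was at least 0.69 in each.

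Ticam1 (ENSMUSG00000047123, chromosome 17, 56269319 to 56276786, minus strand), which encodes TRIF, rested on 58, 59 and 48 counts in knockout libraries and on 66, 90 and 35 in WT libraries. These came to 1.82, 1.82 and 2.10 CPM in knockout, against 2.47, 2.90 and 1.13 CPM in WT. The WT libraries held both the highest and the lowest value, so the knockout values lay wholly within the WT range. The log2 fold change was -0.18, with a 95% interval from -1.07 to 0.72 that does not exclude a 2-fold lower level (edgeR, adjusted p = 0.98).

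Ticam2 (ENSMUSG00000056130, chromosome 18, 46557291 to 46574533, minus strand), which encodes TRAM, was the least abundant member. It had 41, 20 and 35 counts in knockout libraries and 35, 50 and 15 counts in WT libraries, or 1.29, 0.62 and 1.53 CPM in knockout against 1.31, 1.61 and 0.48 CPM in WT. Its log2 fold change was 0.01, and the 95% interval ran from -1.24 to 1.26 (edgeR, adjusted p = 1.00), so that a 2-fold difference in either direction was not excluded. Its residual SD of log2 CPM within genotypes was 0.73, against a median of 0.56 for tested genes of like CPM. The gene shares 838 exonic bases with Tmed7, a cargo receptor gene on the same strand, and reads there are left out of its count. Per kilobase of exon, the level of Myd88 was 112 to 271 times that of Ticam1 over the 6 libraries.

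Among the IRAK genes, Irak2 and Irak3 were abundant, and Irak4 and Irak1, the pair whose products have established kinase activity, were at far lower levels. Irak4 (ENSMUSG00000059883, chromosome 15, 94543643 to 94581815, plus strand), the kinase that starts the cascade at MyD88, was at 15.7, 16.6 and 16.2 CPM in knockout libraries and at 17.8, 16.03 and 13.4 CPM in WT libraries. The knockout values again lay inside the WT range. Its log2 fold change was 0.04, with a 95% interval from -0.33 to 0.41 (edgeR, adjusted p = 0.99).

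Irak1 (ENSMUSG00000031392, chromosome X, 74013914 to 74023918, minus strand), a substrate and partner of IRAK4 that recruits TRAF6, was at 30.7, 21.7 and 29.2 CPM in knockout libraries, against 25.4, 27.04 and 28.9 CPM in WT libraries. Here the knockout libraries held both extremes, with knockout replicate 2 the lowest. Irak1 had the smallest fitted change of the 10 members, 0.002 on the log2 scale, with a 95% interval from -0.36 to 0.37 (edgeR, adjusted p = 1.00).

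Irak2 (ENSMUSG00000060477, chromosome 6, 113638467 to 113695026, plus strand), which sustains signalling to TRAF6 late in the response, shared the highest level of the members with Irak3. It stood at 938, 1008 and 908 CPM in knockout libraries and at 839.8, 930.3 and 1127 CPM in WT libraries. The knockout values lay within the WT range, and WT replicate 3 was the highest of the 6. The log2 fold change was -0.02, with a 95% interval from -0.30 to 0.26 (edgeR, adjusted p = 0.99).

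Irak3 (ENSMUSG00000020227, chromosome 10, 120141648 to 120202130, minus strand) encodes IRAK-M, an inhibitor that restrains the cascade in myeloid cells. Its values were 769, 735 and 761 CPM in knockout libraries, against 611, 775 and 1051 CPM in WT libraries. The knockout libraries had an SD of 2.33% of their mean, while the WT libraries had an SD of 27.4% of theirs; whether the spread differs between the genotypes was not tested. Irak3 had a log2 fold change of -0.11, with a 95% interval from -0.49 to 0.27 (edgeR, adjusted p = 0.97). Its sign turned on 1 library, since the log2 fold change was 0.12 without WT replicate 3 and -0.29 without WT replicate 1, and neither passed the test (edgeR, adjusted p = 0.95 and 0.78).

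Per kilobase of exon, Irak2 and Irak3 together made up 97.9% ± 0.2 of the summed IRAK level in knockout and 97.96% ± 0.42 in WT (SD, n = 3 each). Irak2 held 50.1% ± 2.0 in knockout and 49.1% ± 2.8 in WT, and Irak3 held 47.8% ± 1.7 in knockout and 48.8% ± 3.2 in WT. Irak1 took 1.34% ± 0.25 in knockout and 1.31% ± 0.18 in WT, and Irak4 took 0.75% ± 0.02 in knockout and 0.73% ± 0.24 in WT. In each library Irak2 therefore stood 53.8 to 95.4 times above Irak4 and 32.7 to 49.6 times above Irak1. These are transcript levels, and protein was not measured.

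**Figure D2:**
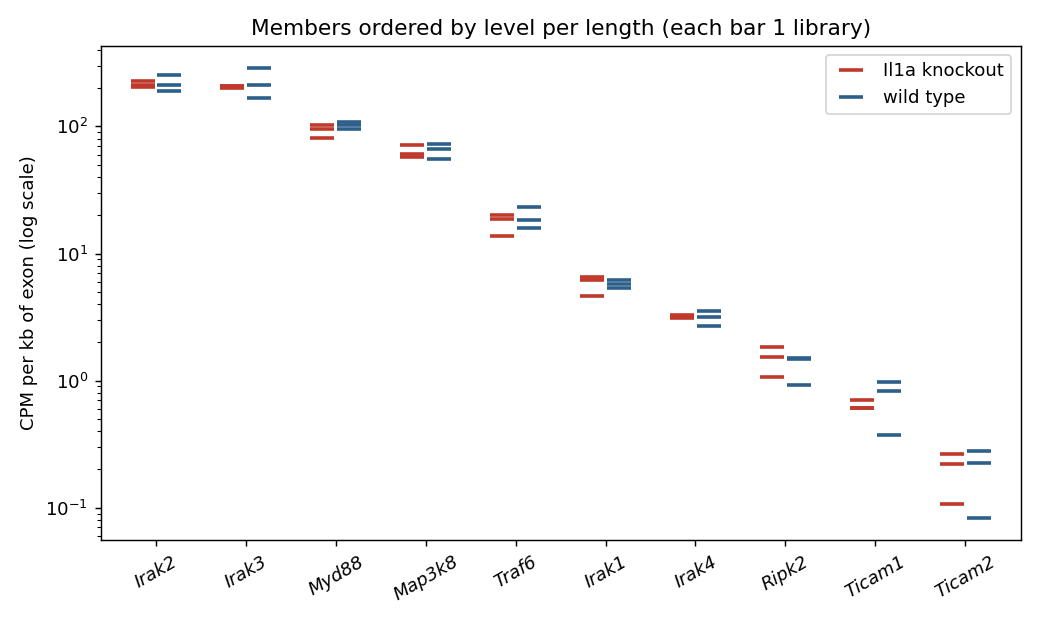
Level of each member in CPM per kilobase of exon on a log scale, ordered from the highest to the lowest mean, 1 bar per library, knockout (red) left of WT (blue). Irak2 and Irak3 share the top, and the levels fall from about 217 CPM per kb for Irak2 to about 0.20 CPM per kb for Ticam2.

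Ordered by CPM per kilobase of exon over the 6 libraries, the members ran from Irak2 (217) and Irak3 (213) through Myd88 (97.6), Map3k8 (64.1), Traf6 (18.3), Irak1 (5.76), Irak4 (3.18), Ripk2 (1.39) and Ticam1 (0.68) to Ticam2 (0.20). Of the 9 adjacent pairs in this order, 8 kept it in all 6 libraries. The exception was Irak2 and Irak3, which could not be ranked, since Irak2 was the higher in 4 libraries and their ratio ran from 0.89 to 1.14. Ripk2 and Ticam1 kept their order within each library, although their ranges across libraries touched (0.93 to 1.85 against 0.38 to 0.97 CPM per kb). Against all tested genes, Irak2 and Irak3 stood at percentiles 98.2 and 98.2 of level per length, Myd88 at 96.6, Map3k8 at 95.3, Traf6 at 88.5, Irak1 at 75.02 and Irak4 at 66.0. Ripk2 was at percentile 51.02, Ticam1 at 36.9 and Ticam2 at 14.5.

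Traf6 (ENSMUSG00000027164, chromosome 2, 101678429 to 101701669, plus strand) encodes the ubiquitin ligase on which the MyD88 branch converges. It is on the chromosome of Il1a, 27.6 Mb away. Its level was 109, 158 and 146 CPM in knockout libraries, against 125, 145 and 184 CPM in WT libraries, with knockout replicate 1 the lowest and WT replicate 3 the highest. The log2 fold change of -0.14 had a 95% interval from -0.53 to 0.25 (edgeR, adjusted p = 0.97) and was 0.023 without WT replicate 3.

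Map3k8 (ENSMUSG00000024235, chromosome 18, 4331327 to 4353015, minus strand), also called TPL2, carries the signal from the IKK complex to the ERK kinases and is required for normal translation and secretion of TNF in macrophages. It was at 322, 260.1 and 272 CPM in knockout libraries and at 247, 299 and 330.2 CPM in WT libraries. The knockout values again lay within the WT range. Its log2 fold change was -0.04, with a 95% interval from -0.35 to 0.27 (edgeR, adjusted p = 0.99).

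Ripk2 (ENSMUSG00000041135, chromosome 4, 16122733 to 16163647, minus strand), the kinase that links the intracellular peptidoglycan sensors NOD1 and NOD2 to NF-kB, was low among the members. It had 3.02, 5.21 and 4.32 CPM in knockout libraries, against 2.62, 4.25 and 4.15 CPM in WT libraries, from 70 counts or more in each library. Ripk2 had the largest fitted difference of the 10 members, a log2 fold change of 0.19, with a 95% interval from -0.51 to 0.88 (edgeR, adjusted p = 0.97). Without knockout replicate 2, its highest library, the value was -0.018, and without WT replicate 1, its lowest library, it was -0.020.

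**Figure D3:**
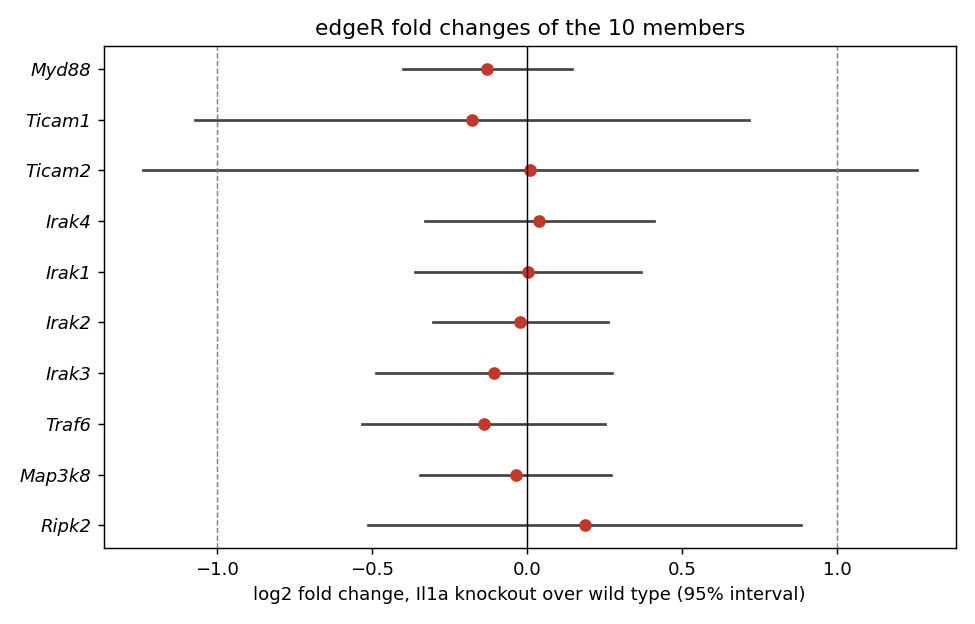
Log2 fold change of each member, knockout over WT, with its 95% interval; dashed lines mark a 2-fold change in either direction. All 10 intervals include 0, and those of Ticam1 and Ticam2 cross a dashed line.

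The intervals show how large a difference could have gone unseen. A change of 2-fold or more, up or down, was outside the 95% interval for 8 of the 10 members, as for 51.9% of all tested genes, and a change of 1.5-fold or more for 7 members (27.3% of all tested genes). The remaining 3, Ripk2, Ticam1 and Ticam2, had the fewest counts. The median log2 fold change was -0.03 over the members and 0.0045 over all tested genes.

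The deposited unstranded counts omit reads where gene models overlap, and 4 members overlap genes on the opposite strand in this way. The unstranded count was 80.2% of the sum of the strand columns for Myd88, which overlaps the peroxisomal gene Acaa1a by 290 exonic bases, and 77.5% for Irak4, which overlaps the actin regulator gene Twf1 by 395. It was 87.5% for Irak2 and 88.6% for Irak3. With the strand columns summed, in which such reads count to both genes, the log2 fold changes were -0.13 for Myd88, 0.05 for Irak4, -0.02 for Irak2 and -0.10 for Irak3. The levels of these genes per kilobase may therefore be underestimates, while 8 of 9 adjacent pairs kept their order in all 6 libraries under that count as well.

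Several members had their extreme values in the same library. WT replicate 3 held the highest value of the 6 libraries for Irak2, Irak3, Traf6 and Map3k8 and the lowest for Irak4, Ticam1 and Ticam2; over all tested genes it was highest for 15.6% and lowest for 17.8%. It also held the most Il1a of the WT libraries. WT replicate 1 was lowest for Irak2, Irak3, Map3k8 and Ripk2 and highest for Irak4. Without WT replicate 3, the log2 fold changes of Irak2, Irak3, Irak4, Traf6, Map3k8 and Ticam2 all changed sign, to 0.10, 0.12, -0.064, 0.023, 0.057 and -0.36, and none passed the test.

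The residual SD of log2 CPM within genotypes was 0.28 for Irak3 and 0.28 for Traf6, higher than in 91.8% and 92.3% of tested genes of like CPM (within 0.5 on the log2 scale). Irak4 was among the steadier genes of its level, with a residual SD of 0.15 against a median of 0.23. For Myd88 it was 0.14, against a median of 0.16 for genes of its level.

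**Figure D4:**
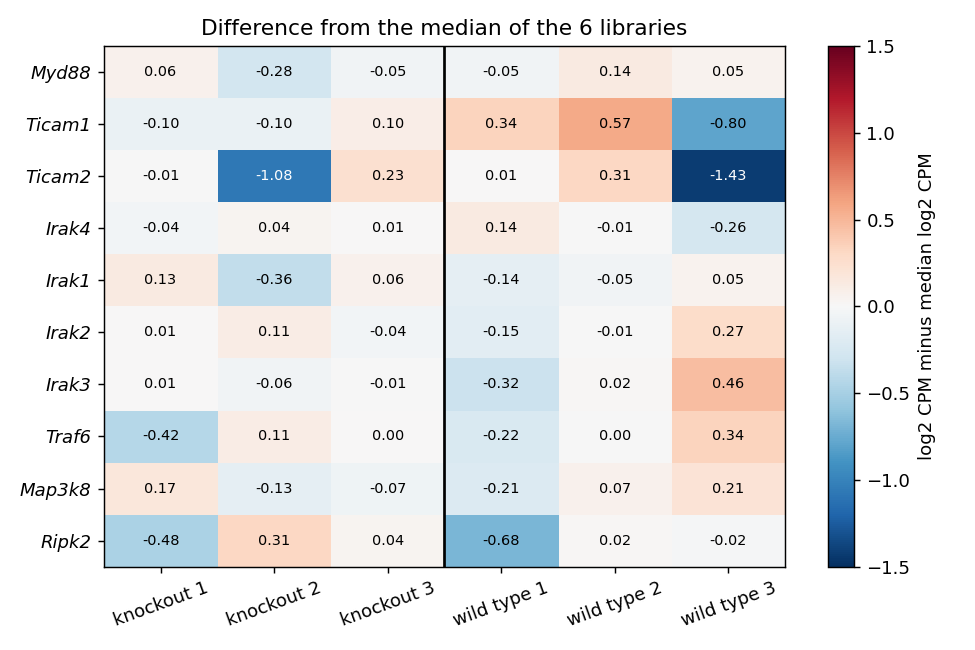
Log2 CPM of each member in each library minus the median of that member over the 6 libraries, knockout libraries on the left of the line and WT libraries on the right. WT replicate 3 is above the median for Irak2 (0.27), Irak3 (0.46), Traf6 (0.34) and Map3k8 (0.21) and below it for Irak4 (-0.26), Ticam1 (-0.80) and Ticam2 (-1.43).

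Across the 6 libraries, the levels of 45 pairs of members were compared on the log2 scale, with exact permutation tests over 720 pairings. After adjustment over the 45 pairs, 0 passed by Pearson's r and 0 by Spearman's rho, and 8 had an unadjusted Pearson p under 0.05. The closest relation was between Irak3 and Irak4, which ran in opposite directions (r = -0.99, exact permutation p = 0.0042, adjusted 0.094; rho = -0.94, p = 0.017, adjusted 0.19). It was -0.84 without the 2 libraries farthest from the median of Irak3. Irak4 and Map3k8 had r = -0.85 (exact permutation p = 0.0028, adjusted 0.094) and rho = -1 (p = 0.0028, adjusted 0.12), with r = -0.98 without the 2 libraries farthest from the median of Irak4. Irak2 and Irak3 had r = 0.90 (exact permutation p = 0.036, adjusted 0.23) and rho = 0.60 (p = 0.24, adjusted 0.64), and r was -0.83 once the 2 libraries farthest from the median of Irak2 were left out, so that relation rests on those libraries. These relations were not tested within a genotype, which holds 3 libraries.

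The wider pathway, in 6 lists of 96 genes with 88 tested, gave the same count. Over these 88 genes 0 were called in either direction by edgeR (0.101% of all tested genes), 0 by DESeq2 and 0 by limma-voom. An unadjusted edgeR p under 0.05 was found for 3 of the 88, and for 5.99% of all tested genes. The knockout and WT libraries did not overlap for 11 of the 88, 7 higher in knockout (6.12% of all tested genes) and 4 lower (5.48%). The median log2 fold change of the 88 was 0.02.

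Of the receptors that feed the chain, 21 of 24 were tested, with a median log2 fold change of 0.04. Cd14, the coreceptor for lipopolysaccharide, averaged 29075 ± 229 CPM in knockout and 32856 ± 4185 CPM in WT (SD, n = 3 each). Il1rap, the signalling subunit of IL-1 receptors, averaged 1173 ± 77 CPM in knockout and 1348 ± 191 CPM in WT. Tlr1, a partner of TLR2, averaged 74.5 ± 9.4 CPM in knockout and 63.3 ± 8.9 CPM in WT, and Lbp, the lipopolysaccharide carrier, 1.90 ± 0.12 CPM in knockout and 3.17 ± 1.26 CPM in WT. Lbp had the smallest p of the list, and its adjusted p was 0.86 (edgeR).

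Among 10 tested genes of the other adaptors and the Pellino ligases the median log2 fold change was 0.0036. The groups separated for 0 of these 10 genes and for 11.6% of all tested genes. Pik3ap1, which encodes the adaptor BCAP, averaged 1936 ± 155 CPM in knockout and 2066 ± 513 CPM in WT. Traf1, an NF-kB target, averaged 993 ± 139 CPM in knockout and 963 ± 171 CPM in WT. Traf3, the ubiquitin ligase of the TRIF arm, had the smallest p here (edgeR, adjusted p = 0.84), at 58.8 ± 8.9 CPM in knockout and 47.1 ± 4.6 CPM in WT. Tifa, which acts with TRAF6, averaged 42.8 ± 4.8 CPM in knockout and 37.2 ± 6.8 CPM in WT, and Peli1, a ligase that acts on IRAK1, 141.9 ± 10.3 CPM in knockout and 156.5 ± 10.4 CPM in WT.

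In the ubiquitin, TAK1 and IKK list 17 of 17 genes were tested, with a median log2 fold change of -0.0043. Xiap, whose product ubiquitinates RIPK2, had the smallest p of all 88 genes. It was at 27.9, 35.9 and 33.02 CPM in knockout libraries and at 22.7, 24.6 and 18.4 CPM in WT libraries, so the ranges were apart. Its log2 fold change was 0.56 (95% interval 0.19 to 0.93), and it did not pass over all genes (edgeR, unadjusted p = 0.0066, adjusted p = 0.57). Tab3 and Tab2, alternative ubiquitin-binding subunits of the TAK1 complex, had opposite signs. Tab3 averaged 13.2 ± 2.8 CPM in knockout and 18.4 ± 1.5 CPM in WT, and Tab2 averaged 34.6 ± 5.1 CPM in knockout and 28.1 ± 2.1 CPM in WT, with adjusted p of 0.79 and 0.87 (edgeR). Birc3, which encodes the ligase cIAP2, averaged 794 ± 25 CPM in knockout and 821 ± 35 CPM in WT, and Ube2n, the partner enzyme of TRAF6 in making ubiquitin chains, 75.1 ± 9.1 CPM in knockout and 79.1 ± 9.5 CPM in WT.

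All 15 genes of the MAP kinase list were tested, with a median log2 fold change of -0.03. Mapkapk2, the kinase below p38 that stabilises inflammatory mRNAs, averaged 2952 ± 202 CPM in knockout and 3052 ± 502 CPM in WT. Map2k3, an activator of p38, averaged 1022 ± 61 CPM in knockout and 1059 ± 115 CPM in WT. Mapk14, which encodes p38 alpha, had 14.2, 11.8 and 11.2 CPM in knockout libraries, against 28.0, 17.1 and 11.6 CPM in WT libraries (log2 fold change -0.60, edgeR, adjusted p = 0.84). Mapkapk3 averaged 123.4 ± 2.0 CPM in knockout and 108.6 ± 4.7 CPM in WT with separate ranges, and Map2k6, the other main activator of p38, averaged 0.33 ± 0.31 CPM in knockout and 1.02 ± 0.38 CPM in WT; neither passed the test.

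The TBK1 and IRF arm, through which TRIF reaches interferon genes, had 9 of 10 genes tested and a median log2 fold change of 0.08. Ikbke was the most abundant, at 734, 733 and 788 CPM in knockout libraries and at 665, 648 and 699.9 CPM in WT libraries. Irf3, the transcription factor of this arm, had 23.9, 23.8 and 27.7 CPM in knockout libraries and 20.2, 18.03 and 22.8 CPM in WT libraries. For both genes the knockout libraries lay above all WT libraries, and neither passed the test (edgeR, adjusted p = 0.91 and 0.87). Tbk1 averaged 219.8 ± 15.7 CPM in knockout and 198 ± 38 CPM in WT. Ifnb1 did not pass the expression filter.

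Of the negative regulators of the chain 16 of 17 were tested, with a median log2 fold change of 0.02. Dusp1, a phosphatase of MAP kinases, averaged 6175 ± 511 CPM in knockout and 6625 ± 81 CPM in WT, and Tnfaip3, which encodes the ubiquitin editor A20, averaged 4795 ± 461 CPM in knockout and 4768 ± 716 CPM in WT. Cd300lf, an inhibitory receptor, averaged 1372 ± 54 CPM in knockout and 1251 ± 83 CPM in WT. Dusp4 had an unadjusted p of 0.029, at 2.83, 3.24 and 1.22 CPM in knockout libraries, against 0.79, 0.93 and 1.51 CPM in WT libraries (edgeR, adjusted p = 0.79). Tnip3, which encodes an A20-binding protein, averaged 9.86 ± 3.07 CPM in knockout and 7.47 ± 1.38 CPM in WT.

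**Figure D5:**
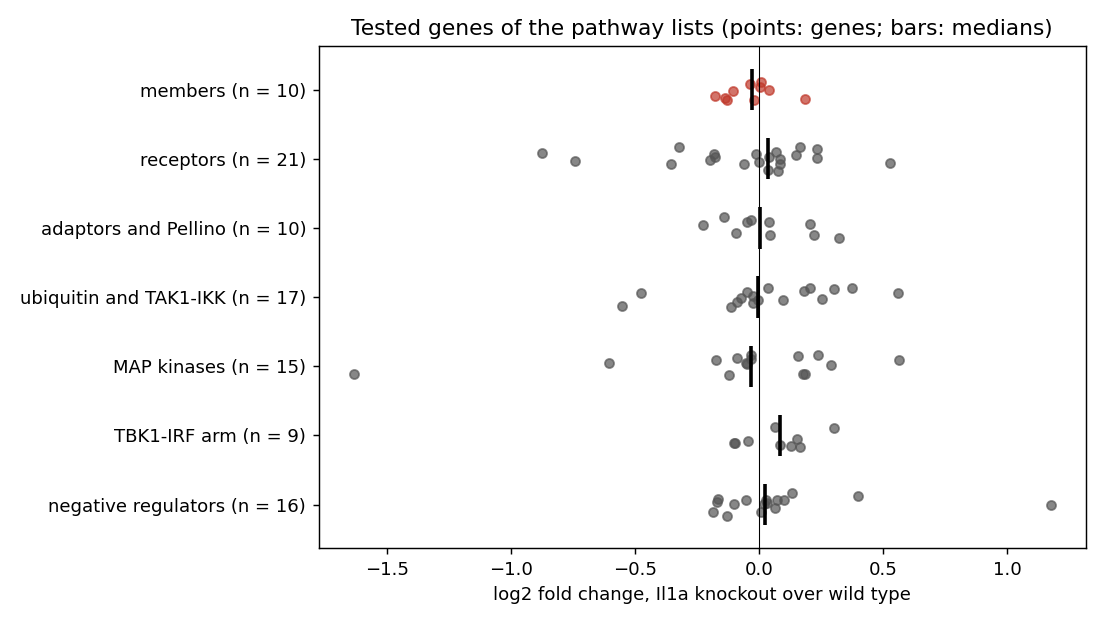
Log2 fold change, knockout over WT, of each tested gene in the 6 pathway lists and of the 10 members (red), with a bar at the median of each list. The medians lie between -0.03 and 0.08, and the widest values belong to genes of few counts such as Map2k6 (-1.63) and Dusp4 (1.17).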

How the data were processed

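Per the labels' protocols, libraries came from column-purified RNA and a SMART-Seq v4 kit for low input. For each library the authors deposited raw counts per gene, unstranded and by read strand. FastQC 0.11.9, Trimmomatic 0.39 and STAR 2.7.8a are named in the submitters' processing notes, as is the build GRCm38 (mm10). An annotation release is not given in the sources used here. Symbols, positions and exon lengths came from GENCODE M21 (GRCm38), which held 54809 of 54838 gene IDs.

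The unstranded counts were filtered by edgeR's default by group (11924 genes, 99.9% of counts), scaled by TMM, and compared by the robust quasi-likelihood test of edgeR 4.0.16 (with limma 3.58.1 and R 4.3.3), knockout against WT, with Benjamini-Hochberg adjustment over all tested genes and a threshold of 0.05. Intervals are 95%. The fit was also run on simulated counts, whose changed genes all averaged 5 CPM or more. That run does not cover genes as low as Ticam1, Ticam2 and Ripk2. Alternatives were other scalings and filters, a replicate block, each library left out, the summed strand columns, DESeq2 1.42.0 and limma-voom; for levels, the strand sum and the longest transcript as length were added after the data were seen. Levels per length used the union of exons. Correlations used log2(CPM + 0.5).

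The members and lists were chosen with earlier results of these data known. Named were all members and, per list, the 3 tested genes with the smallest p and the 2 most abundant. For 3 against 3 libraries the smallest two-sided p of an exact permutation test is 0.1. Reads carry no molecular tags.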

Additional observations from a re-analysis of the deposited data

How the results depend on the processing

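Members called stayed at 0 in all 15 alternatives, as did the other pathway genes called, and the lowest adjusted p of a member in any was 0.69 (Myd88). Over all genes, 12 were called, against 185 without a filter, 21 with a filter at 5 CPM in 3 libraries and 70 with DESeq2; with 1 library left out the count ran from 7 to 24 (24 without knockout replicate 1, 7 without WT replicate 1 or 2). A replicate block gave 20 calls and 0 members. The labels do not say whether same-numbered libraries share a day or batch. Deviations from the genotype means correlated at 0.14, 0.06 and 0.0034 between same-numbered libraries, and not every library was closest to its own number. With 3 libraries per genotype, these values cannot decide whether a day or batch was shared.

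No member passed the test, and 24 of 147 fitted changes had the other sign. Irak1 was -0.0046 with DESeq2 size factors, -0.0075 without a filter, -0.011 with the replicate block, -0.0082 in DESeq2 and -0.019 in limma-voom. With library size alone Irak2 was 0.042 and Map3k8 0.030. Leaving out 1 library gave Irak1 from -0.10 to 0.13, Irak2 from -0.13 to 0.10, Irak3 from -0.29 to 0.12, Irak4 from -0.064 to 0.12, Traf6 from -0.28 to 0.023, Map3k8 from -0.16 to 0.057, Ripk2 from -0.020 to 0.37, Ticam1 from -0.49 to 0.091 and Ticam2 from -0.36 to 0.35. The cause was not tested. Ticam1, Ticam2 and Ripk2 did not pass the filter at 5 CPM. The share of Irak2 and Irak3 was 97.9% over the 6 libraries, 97.99% with strand columns summed and 97.9% with longest transcripts. The widest intervals were those of Ticam1 and Ticam2, the members with the fewest counts.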
